A study of Homo sapiens with 36 samples.

Results

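The 10 genes described here encode the large ATP-driven chaperones of 3 families, HSP70, HSP90 and the HSP70-related HSP110 proteins. They were taken by symbol from the 57500 gene rows of the count files, and all 10 were measured in all 36 libraries. By where the protein works, 7 are cytosolic (HSPA1A, HSPA1B, HSPA8, HSPA4, HSPH1, HSP90AA1 and HSP90AB1), 2 belong to the endoplasmic reticulum, the ER (HSPA5 and HSP90B1), and 1 is mitochondrial (HSPA9). The cells were THP-1, a human monocytic line of leukaemic origin, transduced by lentivirus with a non-target short hairpin RNA (shNT) or with a hairpin against the nuclear receptor gene NR4A2 (shNR4A2) or NR4A3 (shNR4A3). Each line was kept for 4 h in buffered medium at 5% CO2, the usual level for culture, or at 10% CO2 (buffered hypercapnia), and LPS at 2.5 µg/mL was added to one set of cultures for the last 2 h. This gave 12 conditions of 3 libraries each of polyadenylated RNA, and all 3 lines, shNT included, carried a hairpin. The labels do not say whether the 3 libraries of a condition came from separate cultures. The study's legends speak of individual experiments, but nothing ties a library to one, and the p-values measure the spread between these libraries.

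HSP70 proteins bind short exposed stretches of unfolded chains and release them in a cycle of ATP hydrolysis that J-domain proteins start and nucleotide exchange factors, the HSP110 proteins among them, complete. HSP90 proteins act later, on clients that are nearly folded, such as kinases and steroid receptors. Each compartment has its own set: the cytosolic genes include stress-inducible ones under heat shock factor 1 (HSF1), the ER genes belong to the unfolded protein response, and HSPA9 (mortalin) drives the import of proteins into the mitochondrial matrix.

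Total counts were 16171161 to 23929138 per library, with a median of 19639071. The targeted genes were lower in the knockdown lines with LPS. In TPM, a level per gene length, NR4A2 was at 62.7 ± 11.7 TPM (SD, n = 3) in shNT cells and 21.2 ± 6.78 TPM in shNR4A2 cells at 5% CO2, and, at the same CO2 level, NR4A3 was at 31.7 ± 0.708 TPM in shNT cells and 17.3 ± 0.807 TPM in shNR4A3 cells. TNF was at 1653 TPM or more in every library with LPS and at 96.8 TPM or less in every library without it. All 8 monocyte markers looked for were present in every library, from 7.47 TPM for CD14 upwards. Those of T cells, B cells, epithelium and fibroblasts reached no more than 4.78 TPM for any gene, and MS4A1 did not pass 0.107 TPM.

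On GRCh38, as the files give positions, HSPA1A (chr6:31815464-31817946) and HSPA1B (chr6:31827735-31830255) stand next to each other on the plus strand of chromosome 6. Both encode the inducible HSP70. Of the 150-base windows in their annotated transcripts, 1566 are shared, which is 65.3% of those of HSPA1A and 66.1% of those of HSPA1B. A single read in a shared window cannot by itself be assigned to one of the pair. The reads were paired, and how many could be placed by their mate was not tested. The separate values of the pair are therefore uncertain. No other pair of the 10 shares such a window. HSPA8 (chr11:123057489-123063230) encodes the constitutive HSC70. HSPA4 (chr5:133051962-133106449) and HSPH1 (chr13:31134974-31162388) encode HSP110 exchange factors. HSP90AA1 (chr14:102080738-102139699) encodes the inducible HSP90 alpha and HSP90AB1 (chr6:44246166-44253888) the constitutive HSP90 beta. HSPA5 (chr9:125234853-125241330) encodes BiP, HSP90B1 (chr12:103930107-103953645) encodes GRP94, and HSPA9 is at chr5:138554882-138575444. Named pseudogenes of these genes held at most 0.190% of their parent's count in any library.

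The promoters differed in the motifs they hold, and 6 of them are printed here. Of the motifs searched, only the ER stress response element was at every gene of its compartment and at no other member. All 10 genes had an entry in RefSeq's promoter table (GRCh38.p14), with 300 bases from 250 before the start to 50 after it. A heat shock element of 3 units (GAA, TTC and GAA, with 2 bases of any kind between neighbours, either strand) was found at HSPA8, HSP90AA1 and HSP90AB1, against 0.49% of all 35116 windows of this length. Its first 8 bases alone (GAANNTTC), which lie within it, were found also at HSPA1A and HSPA1B, and in 6.77% of all windows. The pair TTCNNGAA, the last 8 bases of the longer element, was found at 4 of the 10, HSPA9 included, and in 7.74% of windows. The ER stress response element (CCAAT and CCACG, with 9 bases of any kind between them, either strand) was found at HSPA5 and HSP90B1 only, among the 10, and in 0.0769% of windows. The NR4A response element NBRE (AAAGGTCA, either strand) was in none of the 10 and in 1.22% of windows. HSPH1 and HSPA4 held none of these 5 patterns within this window. Some genes have several windows. Counted by gene symbol, as the members are, the 5 shares were 0.608%, 8.21%, 9.46%, 0.0916% and 1.49% of 27305 symbols, in the order named. The 250 bases before the start are given 5′ to 3′ on the gene's own strand, with the fixed letters of the named element in capitals: the 3-unit heat shock element for the first 3 genes, the 2-unit one for HSPA1A, and the ER element for the last pair.
HSPA8 (chr11:123062137-123062386, minus strand): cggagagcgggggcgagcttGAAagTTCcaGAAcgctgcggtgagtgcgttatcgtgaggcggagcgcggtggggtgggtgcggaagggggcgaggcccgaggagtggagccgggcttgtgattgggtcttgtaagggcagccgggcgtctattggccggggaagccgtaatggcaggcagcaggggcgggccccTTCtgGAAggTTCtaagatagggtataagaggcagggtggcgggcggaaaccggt
HSP90AA1 (chr14:102087045-102087294, minus strand): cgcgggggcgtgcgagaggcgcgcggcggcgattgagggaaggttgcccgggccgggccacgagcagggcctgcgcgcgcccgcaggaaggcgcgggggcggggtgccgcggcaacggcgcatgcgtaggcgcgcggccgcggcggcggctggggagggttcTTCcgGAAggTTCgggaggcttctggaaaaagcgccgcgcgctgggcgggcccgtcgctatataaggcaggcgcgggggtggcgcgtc
HSP90AB1 (chr6:44247693-44247942, plus strand): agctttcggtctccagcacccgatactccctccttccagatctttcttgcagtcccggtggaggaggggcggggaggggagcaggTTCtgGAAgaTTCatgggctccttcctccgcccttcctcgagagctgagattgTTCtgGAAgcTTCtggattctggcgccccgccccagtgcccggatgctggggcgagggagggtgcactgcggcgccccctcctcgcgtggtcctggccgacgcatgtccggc
HSPA1A (chr6:31815293-31815542, plus strand): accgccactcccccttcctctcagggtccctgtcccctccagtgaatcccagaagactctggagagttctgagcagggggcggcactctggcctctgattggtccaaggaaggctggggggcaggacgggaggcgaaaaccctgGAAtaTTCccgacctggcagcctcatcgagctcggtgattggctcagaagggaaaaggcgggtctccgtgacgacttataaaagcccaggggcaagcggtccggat
HSPA5 (chr9:125241344-125241593, minus strand): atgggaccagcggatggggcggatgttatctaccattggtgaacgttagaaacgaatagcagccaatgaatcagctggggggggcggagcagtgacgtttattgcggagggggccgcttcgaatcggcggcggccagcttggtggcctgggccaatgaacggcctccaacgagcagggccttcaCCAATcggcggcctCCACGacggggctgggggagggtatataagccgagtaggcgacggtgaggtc
HSP90B1 (chr12:103930160-103930409, plus strand): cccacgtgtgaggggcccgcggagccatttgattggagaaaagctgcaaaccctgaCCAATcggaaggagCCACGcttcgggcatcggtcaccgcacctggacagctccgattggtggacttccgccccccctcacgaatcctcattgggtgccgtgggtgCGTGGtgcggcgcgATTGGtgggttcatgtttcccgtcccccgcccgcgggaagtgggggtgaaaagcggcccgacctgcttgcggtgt
A match of letters is a description of the sequence, and no binding was measured.

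Levels between genes were compared in TPM, which divides each count by the length of the gene model in the files and scales every library to the same sum. HSP90AB1 was the highest, at 2185 to 4037 TPM (median 2755) over the 36 libraries, and ranked 37th among all genes by mean TPM. HSPA8 followed at 768 to 2694 TPM (median 1580.0), and HSP90AA1 at 738 to 1751 TPM (median 1014). The ER pair came next, HSPA5 at 468 to 671 TPM (median 574) and HSP90B1 at 445 to 655 TPM (median 524), and then mitochondrial HSPA9 at 362 to 513 TPM (median 423). HSPA4 was at 137 to 185 TPM (median 157), HSPH1 at 36.8 to 203 TPM (median 85.97) and HSPA1B at 37.9 to 273 TPM (median 66.4). HSPA1A was the lowest, at 14.8 to 80.3 TPM (median 22.03), with rank 5342. HSP90AB1 and HSPA8 were thus the highest and the HSPA1A and HSPA1B pair the lowest as counted. The authors counted unique gene hits, and 65.3% and 66.1% of the windows of HSPA1A and HSPA1B are shared. TPM still divides by the full length, so the levels of this pair may be too low. Their place in the order, below HSPH1 and HSPA4, is therefore uncertain. Not all neighbours in this order were separate. HSP90AB1 was above HSPA8 without overlap in all 12 conditions, as were HSP90AA1 above HSPA5 and HSPA9 above HSPA4. HSPA8 and HSP90AA1 overlapped in 3 conditions, HSPA5 and HSP90B1 in 5, HSP90B1 and HSPA9 in 3, and HSPA4 and HSPH1 in 3. HSPH1 and HSPA1B overlapped in 9 of the 12 and do not differ beyond their spread there. The ratio of HSPA1B to HSPA1A stayed between 2.11 and 4.78 in all libraries.

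Together the 10 genes held 0.549% to 1.07% of all TPM. Within a library the ratio of the 2 ER genes to the 7 cytosolic genes does not depend on how libraries are scaled, and it was lower at 10% than at 5% CO2 in each line. In shNT cells without LPS the 3 libraries had ER-to-cytosolic ratios of 0.236, 0.242 and 0.256 at 5% CO2 and 0.199, 0.177 and 0.222 at 10%. With LPS these ratios were 0.215, 0.224 and 0.197 at 5% and 0.152, 0.122 and 0.172 at 10%. The ranges at the CO2 levels did not overlap in either state. In shNR4A2 cells the mean ratio was 0.243 ± 0.0175 (SD, n = 3) at 5% and 0.199 ± 0.0224 at 10% CO2, and with LPS 0.21 ± 0.0288 and 0.146 ± 0.013. In shNR4A3 cells it was 0.229 ± 0.0176 and 0.181 ± 0.0151, and with LPS 0.192 ± 0.0215 and 0.129 ± 0.0216. In both knockdown lines, too, the CO2 levels did not overlap in either state. The highest mean ratio was thus that of shNT cells at 5% CO2 and the lowest that of shNR4A3 cells at 10% CO2 with LPS. The ratio of HSPA9 to the cytosolic genes ranged from 0.0494 to 0.0959. Its mean, too, was lower at 10% than at 5% CO2 in each line and LPS state. The libraries of the CO2 levels overlapped in shNT cells without LPS, at 0.0873 ± 0.00181 and 0.0782 ± 0.00839, and in none of the other 5 pairs. With LPS the shNT means were 0.0905 ± 0.00572 and 0.0729 ± 0.0114. In shNR4A2 cells they were 0.0839 ± 0.00746 and 0.0723 ± 0.00483, and with LPS 0.0834 ± 0.0106 and 0.0645 ± 0.00631. In shNR4A3 cells they were 0.0755 ± 0.00602 and 0.0624 ± 0.00542, and with LPS 0.0763 ± 0.00592 and 0.0565 ± 0.00837.

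**Figure D1:**
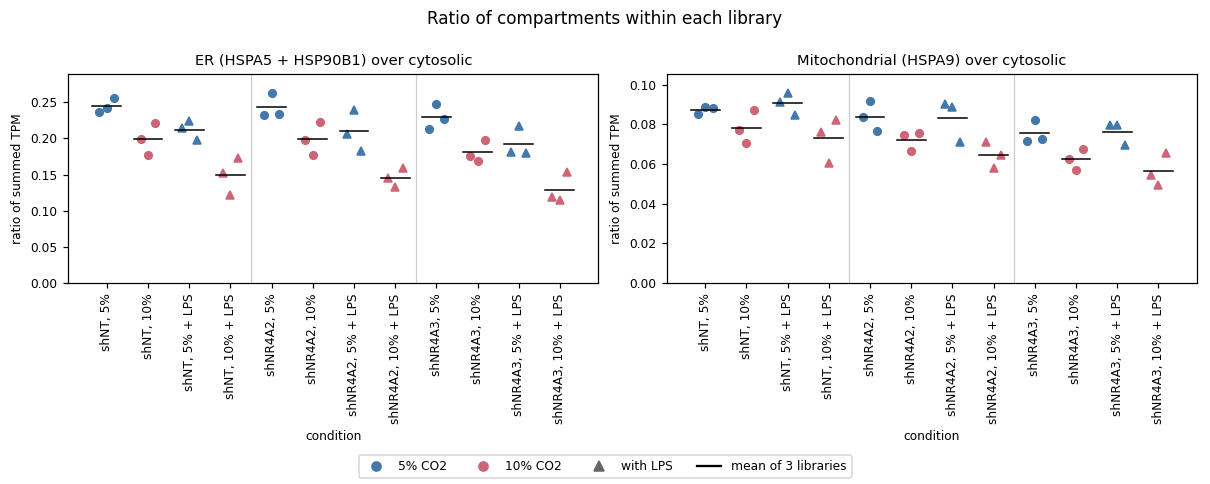
Ratio of the summed TPM of HSPA5 and HSP90B1 (left) and of HSPA9 (right) to the summed TPM of the 7 cytosolic chaperones, y axis, in each of the 12 conditions, x axis. Each point is 1 library and each bar the mean of 3. The mean of either ratio is lower at 10% than at 5% CO2 in every line and LPS state.

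The first comparison asked what 10% CO2 does to these transcripts. Values within a gene are CPM, counts divided by the TMM-scaled library size, the scale of the tests. A gene is called when its adjusted p in edgeR's quasi-likelihood test is under 0.05 over the 17720 genes tested. Averaged over the 3 lines, 10% CO2 without LPS went with higher HSPH1, HSPA8 and HSP90AA1. These were 3 called of 10, all cytosolic and all higher, where 8.67% of all genes tested were called higher. With LPS, 7 of 10 were called higher, where 14% of all genes were. These 7 were the whole cytosolic set. HSPA5 was called lower there, where 15.3% of all genes were. HSP90B1 and HSPA9 were called in neither state. The median log2 fold change of the cytosolic genes was 0.55 without and 0.69 with LPS, that of the ER pair -0.07 in both, and that of all genes tested -0.008 without and -0.001 with LPS.

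**Figure D2:**
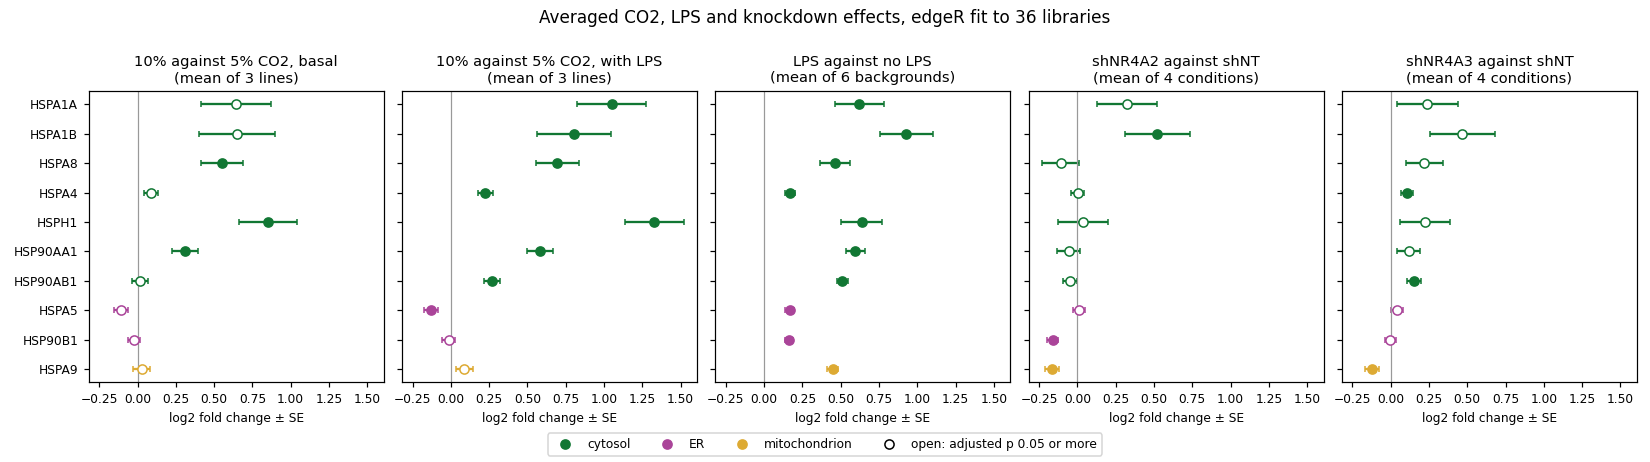
Averaged log2 fold changes (x axis, log2) of the 10 chaperone genes (y axis) for CO2 without and with LPS, LPS, shNR4A2 and shNR4A3, from edgeR's fit to 36 libraries. Points are estimates with standard errors, coloured by compartment, and filled where the adjusted p is under 0.05. HSPH1 has the largest CO2 effect, 0.85 without and 1.33 with LPS, while HSPA5, HSP90B1 and HSPA9 lie between -0.13 and 0.09 for CO2.

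HSPH1, an exchange factor for HSP70, had the largest CO2 effect of the 10. In shNT cells it was at 118, 97.5 and 129 at 5% CO2 and 229, 257 and 161 at 10% CO2, and with LPS at 132, 112 and 209 at 5% CO2 and 363, 562 and 301 at 10% CO2. In shNR4A2 cells it was at 135, 79.6 and 168 at 5% CO2 and 218, 219 and 183 at 10% CO2, and with LPS at 139, 102 and 264 at 5% CO2 and 397, 409.7 and 335 at 10% CO2. In shNR4A3 cells it was at 155, 96.98 and 152 at 5% CO2 and 279, 281 and 216 at 10% CO2, and with LPS at 185, 116 and 228 at 5% CO2 and 519.8, 522 and 333 at 10% CO2. In all 6 pairs of conditions every library at 10% CO2 was above every library at 5%, and the 2 highest values of the series were shNT replicate 2 and shNR4A3 replicate 2 at 10% CO2 with LPS. The averaged log2 fold change was 0.85 ± 0.19 (SE, adjusted p = 0.00279) without LPS, a 1.80-fold rise, and 1.33 ± 0.19 (SE, adjusted p = 1.18e-05) with LPS, a 2.51-fold rise. Its promoter window held none of the motifs searched.

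HSPA8, the constitutive HSP70, rose with CO2 too. In shNT cells it was at 1603, 1249 and 1425 at 5% CO2 and 2330.5, 2469.6 and 1780.3 at 10% CO2, and with LPS at 1858, 1497 and 2298 at 5% CO2 and 3191, 3964 and 2615 at 10% CO2. In shNR4A2 cells it was at 1654, 961 and 1549.6 at 5% CO2 and 2203, 2011 and 1669.5 at 10% CO2, and with LPS at 2040.3, 1165 and 2325 at 5% CO2 and 3121, 2935 and 2387 at 10% CO2. In shNR4A3 cells it was at 2037, 1351 and 1822 at 5% CO2 and 2607, 2704 and 2242 at 10% CO2, and with LPS at 2556, 1611 and 2551 at 5% CO2 and 3827, 4015 and 2949.6 at 10% CO2. Again no pair of conditions overlapped, and replicate 2 was the lowest library at 5% CO2 in every line and LPS state. The averaged log2 fold change was 0.55 ± 0.14 (SE, adjusted p = 0.00683) without and 0.69 ± 0.14 (SE, adjusted p = 4.40e-04) with LPS. HSP90AA1, the inducible HSP90, was at 1169.9, 1069 and 1118 at 5% CO2 and 1548, 1599 and 1166 at 10% CO2 in shNT cells without LPS, and with LPS at 1418, 1458 and 1763 at 5% CO2 and 2229, 3081 and 1949 at 10% CO2. The first pair overlapped, by the 1 library at 10% that was low, and the second did not. Its averaged log2 fold change was 0.31 ± 0.09 (SE, adjusted p = 0.0127) without and 0.58 ± 0.09 (SE, adjusted p = 9.93e-06) with LPS.

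For the inducible pair HSPA1A and HSPA1B, 1 library weighed on the result without LPS. HSPA1A was at 14.3, 9.69 and 10.6 at 5% CO2 and 16.4, 14.95 and 11.2 at 10% CO2 in shNT cells, at 12, 11.3 and 12.95 at 5% CO2 and 17.3, 46.8 and 12.7 at 10% CO2 in shNR4A2 cells and at 12.7, 9.73 and 11.3 at 5% CO2 and 17.6, 21.2 and 10.8 at 10% CO2 in shNR4A3 cells. HSPA1B was at 30.6, 25.1 and 27.2 at 5% CO2 and 37.4, 39.4 and 26.2 at 10% CO2 in shNT cells, at 35.1, 25.9 and 41.8 at 5% CO2 and 43.1, 136 and 32.1 at 10% CO2 in shNR4A2 cells and at 35.9, 24.5 and 37.9 at 5% CO2 and 49.3, 64.9 and 35.6 at 10% CO2 in shNR4A3 cells. Replicate 2 of shNR4A2 at 10% CO2, singled out after its values were seen, stood far above the other 2 libraries of its condition for both genes. The same library had DNAJB1, an HSF1-regulated J-domain protein of the cytosol, at 229 CPM against 106 and 78.4, while its HSPH1 was close to that of replicate 1. Without LPS the averaged CO2 effect was 0.64 ± 0.23 (SE, adjusted p = 0.0534) for HSPA1A and 0.65 ± 0.25 (SE, adjusted p = 0.0699) for HSPA1B, neither called. Leaving out that library gave 0.38 (adjusted p = 0.187) and 0.35 (adjusted p = 0.269). Leaving out another one, replicate 3 of the same condition, gave 0.75 (adjusted p = 0.0177) and 0.77 (adjusted p = 0.025), and replicate 1 gave 0.71 (adjusted p = 0.0379) and 0.73 (adjusted p = 0.0454). HSPA1A was called in 8 of the 36 fits that leave out 1 library and HSPA1B in 2, and DESeq2 called both, at 0.64 (adjusted p = 0.0226) and 0.65 (adjusted p = 0.0415).

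With LPS the same pair was higher at 10% CO2 whichever library was left out. HSPA1A was at 15.6, 13.6 and 16.5 at 5% CO2 and 21.7, 35.7 and 18.3 at 10% CO2 in shNT cells, at 17.7, 10.7 and 20.9 at 5% CO2 and 24.3, 39.1 and 27.3 at 10% CO2 in shNR4A2 cells and at 17.3, 12 and 15.5 at 5% CO2 and 47.8, 61.3 and 22.03 at 10% CO2 in shNR4A3 cells. HSPA1B was at 48.5, 37.8 and 63.3 at 5% CO2 and 67.02, 96.9 and 58.1 at 10% CO2 in shNT cells, at 61.8, 40.7 and 89.8 at 5% CO2 and 87.6, 119 and 82.7 at 10% CO2 in shNR4A2 cells and at 55.7, 40.2 and 75.3 at 5% CO2 and 120.0, 211 and 78.9 at 10% CO2 in shNR4A3 cells. HSPA1A did not overlap between CO2 levels in any line, and HSPA1B overlapped in shNT and shNR4A2 cells. The averaged log2 fold change was 1.05 ± 0.22 (SE, adjusted p = 8.93e-04) for HSPA1A and 0.80 ± 0.24 (SE, adjusted p = 0.0134) for HSPA1B. The highest library of the series for both was shNR4A3 replicate 2 at 10% CO2 with LPS. HSP90AB1 and HSPA4 moved less: HSP90AB1 by 0.27 ± 0.05 (SE, adjusted p = 2.09e-04) and HSPA4 by 0.23 ± 0.05 (SE, adjusted p = 5.24e-04) with LPS, against 0.02 ± 0.05 and 0.09 ± 0.05 without LPS, where neither was called.

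With LPS the averaged CO2 effects of the ER and mitochondrial genes were smaller than those of all 7 cytosolic genes, the least of which was 0.23. Without LPS this did not hold, as the cytosolic HSP90AB1 and HSPA4 moved less than HSPA5. Of the 2 ER genes and HSPA9, HSPA5 was the only one called. HSPA5 (BiP) was at 645, 573 and 587 at 5% CO2 and 603, 530.1 and 557 at 10% CO2 in shNT cells, at 669, 595 and 612 at 5% CO2 and 618, 507 and 572 at 10% CO2 in shNR4A2 cells and at 664, 594 and 645 at 5% CO2 and 601, 571 and 618 at 10% CO2 in shNR4A3 cells without LPS. With LPS it was at 722, 678 and 699 at 5% CO2 and 678, 623 and 628 at 10% CO2 in shNT cells, at 781, 664 and 692 at 5% CO2 and 667, 580.1 and 632 at 10% CO2 in shNR4A2 cells and at 717, 657 and 698 at 5% CO2 and 663, 623 and 669 at 10% CO2 in shNR4A3 cells. CO2 levels overlapped in all 6. The averaged log2 fold change of HSPA5 was -0.11 ± 0.05 (SE, adjusted p = 0.0979) without LPS and -0.13 ± 0.05 (SE, adjusted p = 0.0286) with LPS. At 10% CO2 HSPA5 was below the same-numbered library at 5% in all 18 pairs. HSPA8, HSPH1 and HSP90AA1 were above it in all 18, and HSPA1A and HSPA4 in 16. HSPA9 was above it in 14, HSPA1B and HSP90AB1 in 13 and HSP90B1 in 9. The share of all genes with such a count was not computed, and most of these pairs share no more than a number. The counts are a description only. With the replicate number as a block the averaged values of HSPA5 were -0.11 ± 0.03 (SE, adjusted p = 0.00813) without and -0.13 ± 0.03 (SE, adjusted p = 9.77e-04) with LPS. HSPA5 was thus called in both states, where the block called 12.3% of all genes lower without and 18.7% with LPS. For CO2, however, the numbers paired the libraries only in shNR4A2 cells without LPS. The call with LPS without the block was kept in 29 of the 36 fits that leave out 1 library. It was lost, with adjusted p from 0.0507 to 0.0776, without shNT 5% CO2 + LPS replicate 1, shNT 10% CO2 + LPS replicate 2 or 3, shNR4A2 5% CO2 + LPS replicate 1, shNR4A2 10% CO2 + LPS replicate 2, shNR4A3 5% CO2 + LPS replicate 1 or shNR4A3 10% CO2 + LPS replicate 2. With no filter on low counts it was lost too, -0.13 (adjusted p = 0.114). HSP90B1 (GRP94) had -0.02 ± 0.04 without and -0.01 ± 0.04 with LPS, and HSPA9 had 0.03 ± 0.05 and 0.09 ± 0.05, with SEs among the smallest of the 10. The mean share of counts from the mitochondrial genome was also higher at 10% CO2 in each line. In shNT cells it was 1.57% ± 0.34 (SD, n = 3) at 5% and 2.66% ± 0.563 at 10% CO2, in shNR4A2 cells 1.72% ± 0.222 and 2.63% ± 0.479, and in shNR4A3 cells 1.74% ± 0.597 and 2.54% ± 0.872. Its part in the CO2 results was not tested.

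Within single lines, with 3 libraries against 3, 4 of the 60 member comparisons for CO2 were called. In shNT cells without LPS these were HSPH1 at 0.91 ± 0.15 (SE, adjusted p = 0.0325) and HSPA8 at 0.63 ± 0.12 (SE, adjusted p = 0.0325), 2 of 10 members where 0.327% of all genes were called higher. HSPH1 lost its call without shNT 5% CO2 replicate 1, 0.94 (adjusted p = 0.21), without shNT 10% CO2 replicate 1, 0.87 (adjusted p = 0.0532), and without shNT 10% CO2 replicate 2, 0.78 (adjusted p = 0.291). HSPA8 lost it without shNT 5% CO2 replicate 1, 0.72 (adjusted p = 0.21), shNT 5% CO2 replicate 3, 0.63 (adjusted p = 0.0816), and shNT 10% CO2 replicate 2, 0.54 (adjusted p = 0.312). In shNT cells with LPS only HSPA4 was called, at 0.27 ± 0.07 (SE, adjusted p = 0.0433), where 4.47% of all genes were called higher, and it was called in 2 of the 6 fits that leave out 1 library. In shNR4A3 cells with LPS only HSP90AA1 was called, at 0.69 ± 0.14 (SE, adjusted p = 0.0442), where 0.931% of genes were, and in 1 of 6 such fits. No member was called in shNR4A2 cells without LPS, in shNR4A2 cells with LPS or in shNR4A3 cells without LPS, where 0.0113%, 0.198% and 1.13% of all genes were. At an unadjusted p under 0.05, 28 of the 60 passed, where 16.7% of all gene tests did. DESeq2, run on every gene with a count, called 17 of the 60. Over all genes it called 4237 of 238610 tests, or 1.78%. The study, which used DESeq2, reported HSP90AA1 and HSPA1A as sensitive to CO2 with LPS in all 3 lines. It reported HSPH1 and HSPA4 as sensitive in shNT and shNR4A3 cells and not in shNR4A2 cells. The lack of calls in shNR4A2 cells with LPS thus holds for edgeR's test and not for every test. By position alone, with LPS, 7 of 10 members in shNT cells, 5 in shNR4A2 cells and 7 in shNR4A3 cells had all 3 libraries at 10% above all 3 at 5%. Of all genes 15.3%, 10.8% and 12% did. Without LPS the same held for 2, 3 and 3 members, against 10.2%, 6.41% and 11.1%.

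**Figure D3:**
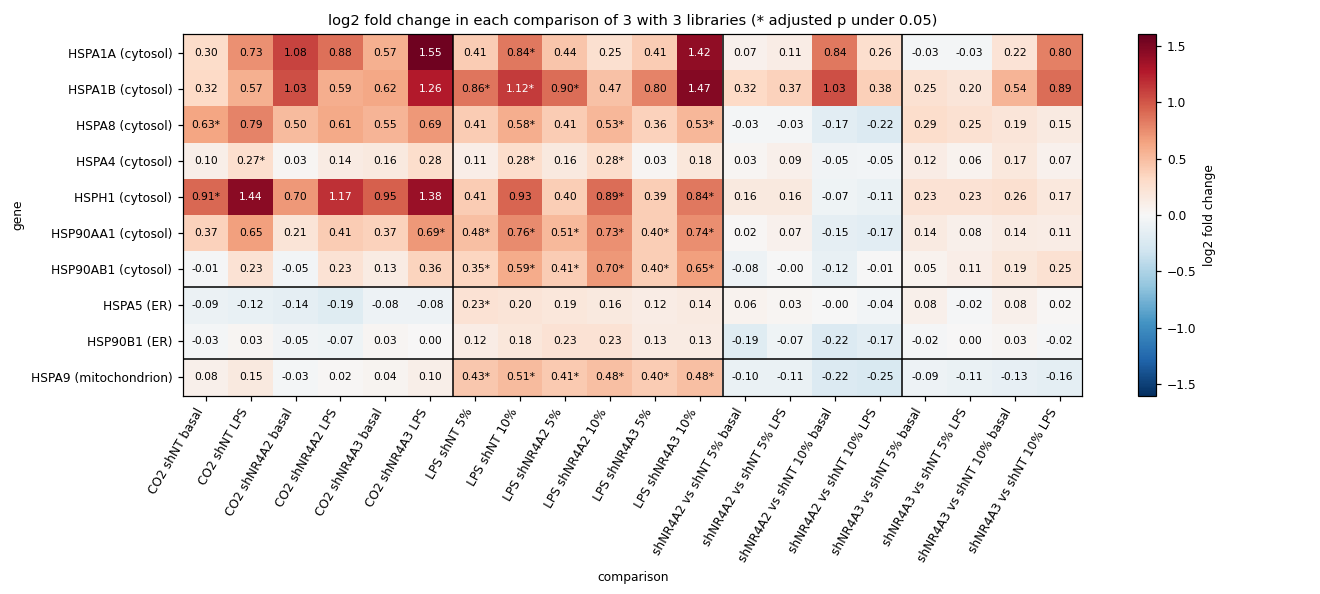
log2 fold change (colour and printed value) of the 10 chaperone genes (rows, by compartment) in the 20 comparisons of 3 with 3 libraries (columns: 6 for CO2, 6 for LPS, 4 for shNR4A2 and 4 for shNR4A3). An asterisk marks an adjusted p under 0.05. The 4 CO2 calls are all cytosolic, the 30 LPS calls include HSPA9 in every column, and the knockdown columns hold none.

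**Figure D4:**
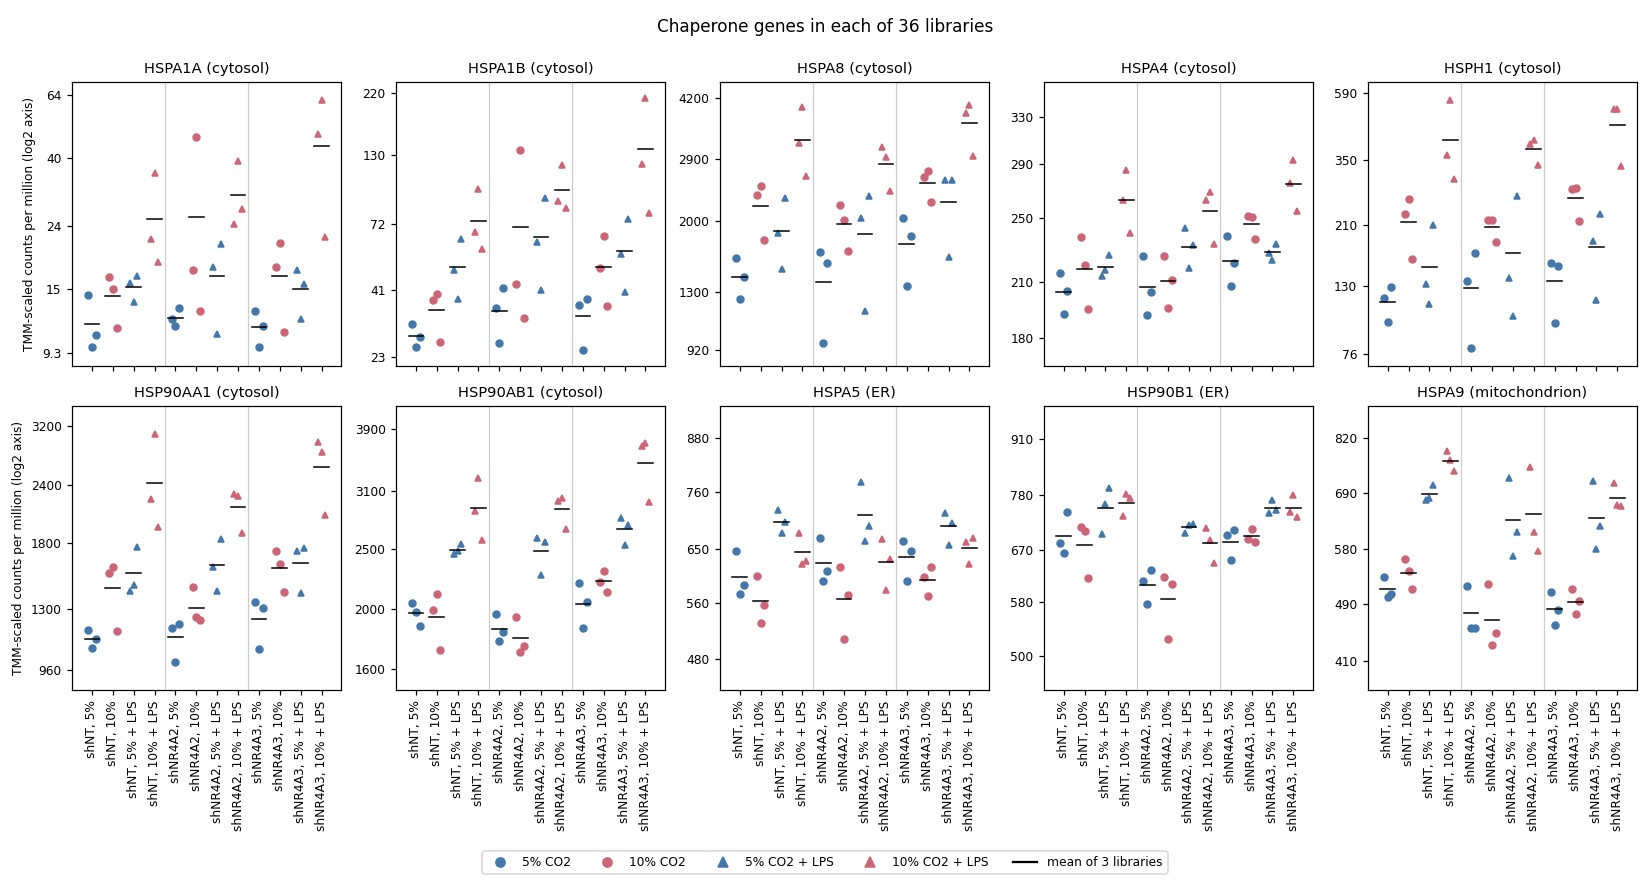
TMM-scaled CPM (y axis, log2) of each chaperone gene in all 36 libraries, by line, CO2 level and LPS (x axis). Each point is 1 library and each bar the mean of 3. HSPH1 and HSPA8 separate by CO2 level in every line, HSPA9 and HSP90AB1 are higher with LPS, and 1 library of shNR4A2 cells at 10% CO2 stands out for HSPA1A and HSPA1B.

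The second comparison concerned LPS, which acts through TLR4. Averaged over lines and CO2 levels, all 10 genes were called higher with LPS, where 30.5% of all genes were, and each kept its call in all 36 fits that leave out 1 library. The rise was largest for HSPA1B, 0.93 ± 0.17 (SE, adjusted p = 3.87e-05), and over 0.4 on the log2 scale for 6 others: HSPH1 0.64 ± 0.13, HSPA1A 0.62 ± 0.16, HSP90AA1 0.60 ± 0.06, HSP90AB1 0.51 ± 0.04, HSPA8 0.46 ± 0.10 and HSPA9 0.45 ± 0.04. HSPA4 (0.17 ± 0.03), HSPA5 (0.17 ± 0.03) and HSP90B1 (0.16 ± 0.03) moved least. The direction of these 3 depends on the scaling: with library size alone they were at -0.04, -0.05 and -0.05 and not called, while the median of all genes moved to -0.22 from -0.011, so that they lay 0.18, 0.18 and 0.17 above that median. The other 7 stayed above 0 with library size alone, from 0.23 for HSPA9 to 0.71 for HSPA1B.

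HSPA9, the mitochondrial HSP70, was the member most evenly higher with LPS. In shNT cells it was at 532, 501 and 505 without and 675, 681 and 709 with LPS at 5% CO2, and at 564, 542 and 513 and 787, 765 and 738 at 10%. In shNR4A2 cells it was at 518, 455 and 454 and 724, 569 and 611 at 5%, and at 521, 431 and 447 and 749, 613 and 578 at 10%. In shNR4A3 cells it was at 508, 459 and 481 and 716, 580.3 and 623 at 5%, and at 512, 474 and 494 and 714, 666 and 664 at 10%. No pair overlapped, and the 6 log2 fold changes ran from 0.40 to 0.51. The share of all genes that did not overlap between LPS states is not given here. HSP90AB1, the constitutive HSP90, had the smallest adjusted p of the 10 in the averaged contrast, 2.76e-14. In shNT cells it was at 2047, 1981 and 1875 without and 2449, 2479.9 and 2550.2 with LPS at 5% CO2, and at 1991, 2114 and 1720.0 and 2875, 3255 and 2583 at 10%. Its 6 log2 fold changes, 0.35 to 0.70, and those of HSP90AA1, 0.40 to 0.76, were all called.

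In the 6 LPS comparisons 30 of 60 member tests were called, all higher. In shNT cells 5 members were called at 5% CO2 (HSPA1B, HSP90AA1, HSP90AB1, HSPA5 and HSPA9) and 7 at 10% (HSPA1A, HSPA1B, HSPA8, HSPA4, HSP90AA1, HSP90AB1 and HSPA9), where 11.2% and 15.1% of all genes were called higher. In shNR4A2 cells it was 4 at 5% (HSPA1B, HSP90AA1, HSP90AB1 and HSPA9) and 6 at 10% (HSPA8, HSPA4, HSPH1, HSP90AA1, HSP90AB1 and HSPA9), against 8.91% and 16.5%. In shNR4A3 cells it was 3 at 5% (HSP90AA1, HSP90AB1 and HSPA9) and 5 at 10% (HSPA8, HSPH1, HSP90AA1, HSP90AB1 and HSPA9), against 11.9% and 20.6%. Thus HSP90AA1, HSP90AB1 and HSPA9 were called in all 6. HSPA5 was called in 1, at 0.23 ± 0.08 (SE, adjusted p = 0.0426), and that call was kept in 1 of 6 fits that leave out 1 library. HSP90B1 was called in none. The replicate numbers paired the libraries of shNR4A3 cells at both CO2 levels and of shNR4A2 cells at 5%. With the number as a block, 7 members were called in shNR4A3 cells at 5% CO2, all 10 in shNR4A3 cells at 10%, and 6 in shNR4A2 cells at 5%, where HSPA8 and HSPH1 were added. Of all genes 16.7%, 25.7% and 12.9% were called higher in these blocked fits. Under that block HSP90B1 at 10% CO2 had 0.13 ± 0.04 (SE, adjusted p = 0.00554). In shNR4A2 cells at 10% CO2, HSPA1A and HSPA1B had 0.25 ± 0.57 and 0.47 ± 0.64 and were not called, and without replicate 2 of the unstimulated libraries they had 1.03 (adjusted p = 0.00751) and 1.37 (adjusted p = 5.95e-04).

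The third comparison set each knockdown line against shNT cells. Both use the same shNT libraries, and the labels name 1 line for each hairpin. Averaged over the 4 conditions, shNR4A2 cells had lower HSP90B1, -0.16 ± 0.04 (SE, adjusted p = 3.96e-04), and lower HSPA9, -0.17 ± 0.05 (SE, adjusted p = 0.00341), and both calls held in all 36 fits that leave out 1 library. HSPA1B was called higher, 0.52 ± 0.21 (SE, adjusted p = 0.0497), in the full fit and in only 9 of those 36, with adjusted p up to 0.182, which was reached without replicate 2 at 10% CO2, 0.30 (adjusted p = 0.182). With the counts of HSPA1A and HSPA1B summed the pair was not called, 0.47 (adjusted p = 0.067). This was 1 of 10 members called higher and 2 lower, where 20.2% and 20.7% of all genes were, so the members' shares were at or below about the same level. In shNR4A3 cells HSP90AB1 was called higher, 0.15 ± 0.05 (SE, adjusted p = 0.0103), and kept its call in all 36. HSPA4, 0.11 ± 0.04 (SE, adjusted p = 0.0474), kept it in 17 and HSPA9, -0.12 ± 0.05 (SE, adjusted p = 0.0404), in 22 of 36, with adjusted p up to 0.103 and 0.0819. HSPA9 was not called by DESeq2, -0.11 (adjusted p = 0.0721), nor HSPA4 with library size alone, 0.08 (adjusted p = 0.125). This was 2 of 10 higher and 1 lower, where 16% and 16.9% of all genes were, again close to the shares of the members. The remaining members, HSPH1 at 0.04 ± 0.16 and 0.22 ± 0.16 and HSPA5 at 0.01 ± 0.04 and 0.04 ± 0.04 among them, were not called in either line.

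HSP90B1 without LPS at 5% CO2 was at 682, 664 and 743 CPM in shNT cells, 615, 577 and 634 in shNR4A2 cells and 698, 651 and 708 in shNR4A3 cells. At 10% CO2 with LPS it was at 735, 781 and 773, 711, 688 and 647 and 743, 778 and 734 in the 3 lines. In both conditions the shNR4A2 libraries lay below all of shNT, while those of shNR4A3 overlapped with it. The share of all genes lying below shNT in this way is not given here. In the other 2 conditions shNR4A2 overlapped with shNT. At 5% CO2 with LPS the shNT libraries were at 701, 759 and 794 and those of shNR4A2 at 701, 718 and 719, and at 10% CO2 without LPS they were at 713, 706 and 619 and 621, 524 and 610.1. In the single conditions no member was called, 0 of 40 in shNR4A2 and 0 of 40 in shNR4A3 cells, where 5.69%, 6.21%, 7.95% and 18.9% of all genes were in shNR4A2 cells (5% CO2 without and with LPS, then 10%) and 6.19%, 5.41%, 6.85% and 14.5% in shNR4A3 cells. At an unadjusted p under 0.05, 2 and 4 of the 40 passed, where 23.7% and 22.1% of all gene tests did. DESeq2 called 0 and 1 of the 40, where 4.43% of its 157425 and 3.64% of its 159780 tests over all genes were called. Replicate numbers paired the libraries of shNR4A2 and shNT cells at 5% CO2. With the number as a block HSPA1B was called there at 0.30 ± 0.10 (SE, adjusted p = 0.0445) without and 0.34 ± 0.08 (SE, adjusted p = 7.15e-04) with LPS, and HSP90B1 at -0.19 ± 0.05 (SE, adjusted p = 0.0132) without LPS. These were 2 and 1 of 10 members, where 21.5% and 24.7% of all genes were called with the block. They also paired those of shNR4A3 and shNT cells at 5% CO2 with LPS, where the block gave HSPA8 0.24 ± 0.07 (SE, adjusted p = 0.033), 1 of 10 members against 18.7% of all genes. Monocyte markers moved with the lines: the summed TPM of the 8 was 938 to 1349 in shNT, 1619 to 1971 in shNR4A2 and 1714 to 2353 in shNR4A3 libraries, and 5 of 8 were called higher in each knockdown line, with FCGR1A called lower in shNR4A3 cells. Their part in the knockdown results was not tested, and fewer cells of a state cannot be told apart from less RNA per cell.

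Whether the CO2 or LPS effect itself differed between lines, or the CO2 effect with LPS, was tested as an interaction. None of the 40 member tests for CO2 by line, 40 for LPS by line and 30 for CO2 by LPS was called by edgeR or by DESeq2. None had an unadjusted p under 0.05, where 2.02%, 4.76% and 5.5% of all gene tests did. DESeq2 called 0%, 0.0893% and 0.0553% of its tests over all genes. At such shares few member tests would pass, so the lack of calls says little about the members. Of all genes edgeR called 0.198% for LPS by shNR4A3 and 0.0451% for LPS by shNR4A2, both at 10% CO2. It called 0.0226% for CO2 by LPS in shNT cells and 0% in the other 8 interactions. The precision is limited. For HSPH1 with LPS, the log2 CO2 effect in shNR4A2 minus that in shNT cells was -0.25 ± 0.53 (SE), and the same difference for shNR4A3 cells was -0.04 ± 0.50. For HSPA4 the same differences were -0.11 ± 0.12 and 0.02 ± 0.10. Calls in single lines, such as that of HSPA4 in shNT cells, are therefore not shown to be particular to the line. The CO2 effect on HSPH1 was larger with LPS than without by 0.53 ± 0.43 in shNT, 0.48 ± 0.48 in shNR4A2 and 0.43 ± 0.40 in shNR4A3 cells. These estimates have the same sign and are about as large as their errors. HSP90AB1 differed in the same way by 0.24 ± 0.12, 0.27 ± 0.15 and 0.23 ± 0.12.

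The partners of these chaperones were read from lists by compartment. Of 23 cytosolic co-chaperones and heat shock factors, 7 were called higher and 0 lower at 10% CO2 without LPS, and 13 and 0 with LPS. For all lists the background is the share of all genes called, 8.67% higher and 8.72% lower without and 14% higher and 15.3% lower with LPS. CHORDC1, an HSP90 co-chaperone, rose by 0.74 ± 0.18 and 1.20 ± 0.18 on the log2 scale. FKBP4, which links HSP90 to steroid receptors, rose by 0.59 ± 0.07 without LPS, and the J-domain protein DNAJA4 by 1.03 ± 0.12 with LPS. The median over the list was 0.06 and 0.20, and that of all genes -0.008 and -0.001. Of 19 ER genes, 2 were called higher and 2 lower without LPS, and 3 and 1 with LPS. DNAJC10, an ER disulphide reductase, rose by 0.33 ± 0.07 and 0.35 ± 0.07, and CALR, the lectin chaperone calreticulin, changed by -0.19 ± 0.04 and -0.17 ± 0.04. Of 9 mitochondrial partners 5 were called higher and 0 lower in both states. HSPD1 and HSPE1, which form the HSP60 chaperonin, rose by 0.38 ± 0.07 and 0.33 ± 0.07 without and by 0.62 ± 0.07 and 0.51 ± 0.07 with LPS, in contrast to HSPA9, which was not called. Among 7 other HSP70-family genes tested, of 9 listed, HSPA4L, another HSP110 gene, was the only one called for CO2, at 0.68 ± 0.16 and 1.17 ± 0.16.

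With LPS, 15 of the cytosolic partners were called higher and 1 lower, against shares of all genes of 30.5% higher and 34.1% lower, led by the J-domain genes DNAJB4, 1.35 ± 0.08, and DNAJA1, 1.09 ± 0.09. Of the ER list 14 were called higher and 3 lower. XBP1, a transcription factor of the unfolded protein response, rose by 1.70 ± 0.05 and EDEM1, which sends misfolded glycoproteins to degradation, by 0.68 ± 0.03, while HERPUD1, another gene of ER-associated degradation, changed by -0.74 ± 0.07. HSPA5 itself moved by 0.17 ± 0.03. Of the mitochondrial list 4 were called higher and 2 lower, and of the family list 4 and 1. In shNR4A2 cells the counts higher and lower were 4 and 3 of 23 cytosolic, 10 and 2 of 19 ER, 0 and 5 of 9 mitochondrial and 3 and 2 of 7 family genes. The shares of all genes called were 20.2% higher and 20.7% lower. In shNR4A3 cells the counts were 9 and 2, 8 and 2, 0 and 2, and 2 and 1, against shares of all genes of 16% higher and 16.9% lower. Against shNT cells XBP1 was at -0.57 ± 0.06 in shNR4A2 and -0.45 ± 0.06 in shNR4A3 cells, and BAG3, an HSP70 exchange factor, at 0.38 ± 0.06 and 0.32 ± 0.06. HSPA4L was lower in shNR4A2 cells, -0.84 ± 0.14. GRPEL2, an exchange factor for mitochondrial HSP70, was lower in both lines, -0.42 ± 0.07 and -0.32 ± 0.07. All values named in these lists passed the test.

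Across the 36 libraries the cytosolic genes moved together. Pearson's r of log2 CPM was 0.671 to 0.951 over the 21 cytosolic pairs (median 0.823), highest for HSPA8 with HSPH1. Over the 14 pairs of a cytosolic and an ER gene it was -0.044 to 0.709 (median 0.294), and HSPH1 with HSPA5 had -0.039. After the mean of each condition was taken off, so that only differences between replicates were left, the cytosolic pairs had 0.376 to 0.923 (median 0.696) and the cytosolic with ER pairs -0.236 to 0.629 (median 0.314). The pair HSPA5 and HSPA9 had 0.761, and the ER pair itself 0.192. These points share conditions, replicate numbers and library scaling, and are a description only. Of all genes tested, HSPH1 was most like CHORDC1 (r = 0.984), AHSA1 (0.966) and HSPA8 (0.951), and within conditions most like CHORDC1 (0.962), DNAJA1 (0.957) and ALKBH1 (0.937). For HSPA5 the nearest genes were GNAI3 (0.893), USP16 (0.893) and PPP2R3C (0.891), and within conditions APOC1 (0.934), SLC31A1 (0.931) and HERPUD1 (0.913). For HSPA9 they were DCTD (0.978), TMEM185B (0.958) and TPT1 (0.957), and within conditions TPT1 (0.934), RPS3A (0.924) and SEPTIN2 (0.924).

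**Figure D5:**
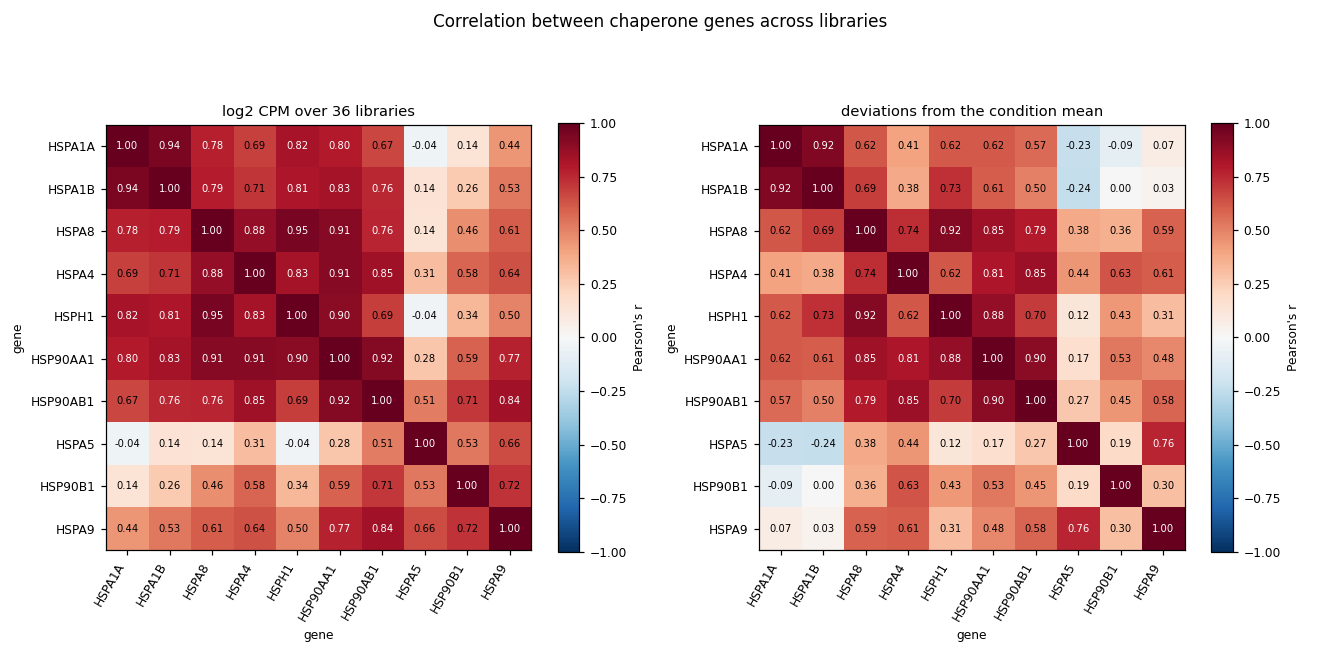
Pearson's r between the 10 chaperone genes over 36 libraries, from log2 CPM (left) and from deviations from each condition's mean (right). Both axes list the genes and the colour and printed value give r. The cytosolic block is at 0.67 or more on the left, and HSPA5 lies near 0 against HSPA1A and HSPH1.

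The members also differed in how far the 3 libraries of a condition lay apart, which sets how small a change could be seen. The pooled SD within conditions on the log2 scale was 0.51 for HSPA1B, 0.48 for HSPA1A, 0.41 for HSPH1 and 0.31 for HSPA8, against a median of 0.212 over all genes tested. It was 0.20 for HSP90AA1, 0.11 for HSP90AB1, 0.11 for HSPA9 and 0.10 for HSPA4. The ER genes were the tightest, HSPA5 at 0.09 and HSP90B1 at 0.07, the latter smaller than in all but 2.11% of genes. The means of the 12 conditions spanned 2.19 for HSPA1B and 1.98 for HSPH1, and 0.34 for HSPA5 and 0.39 for HSP90B1. The genes with the widest span over conditions thus had the widest spread between replicates, and the ER pair was narrow in both.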

How the data were processed

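RNA was measured in 36 libraries of THP-1 cells, 3 in each of 12 conditions grouped from the labels. The deposited files hold raw counts per gene. The authors ran Trimmomatic 0.36 on the paired reads, used STAR 2.5.2b for alignment (GRCh38) and took gene counts from featureCounts (Subread 1.5.2), and the annotation release and strand setting are not given in the sources used here. Symbols were found for 56410 of 57500 genes. Counts were TMM-scaled, filtered with filterByExpr (minimum count 10, leaving 17720 genes) and tested with edgeR 4.0.16 (quasi-likelihood, Benjamini-Hochberg over all genes tested) in R 4.3.3. Pairwise comparisons used their own libraries and averaged contrasts used all 36. TPM was computed from the files' counts and gene lengths. Counts at these totals limit the lowest genes most, HSPA1A among the members. The script was tested on simulated data. Members and lists were chosen with earlier results of these data known. Named partners are, for each list and averaged contrast, those with the largest called change in each direction, of which some are printed.

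Replicate numbers were taken to pair libraries where the deviations of all 3 same-numbered pairs correlated over 0.1, as in CO2 for shNR4A2 cells without LPS, LPS for shNR4A2 cells at 5% and shNR4A3 cells at 5% and 10% CO2, shNR4A2 against shNT at 5% CO2 without and with LPS, and shNR4A3 against shNT at 5% CO2 with LPS (r from 0.111 to 0.314). The pairing comes from the data and not from the labels. Alternatives were DESeq2 1.42.0, its size factors, library size alone, no filter, the replicate block, each library left out, HSPA1A and HSPA1B summed, 1 fit to all libraries, and a threshold of 0.01.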

Additional observations from a re-analysis of the deposited data

How the results depend on the processing

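The 4 calls for CO2 in single lines became 9 in 1 fit to all 36 libraries, 16 with no filter, 17 with DESeq2 and 0 at an adjusted p under 0.01. The 30 for LPS became 16 with library size alone and 18 at 0.01. The 0 for shNR4A2 became 1 in the fit to all libraries, 1 with library size alone and 1 with no filter, and the 0 for shNR4A3 became 3 with no filter and 1 with DESeq2. The 3 averaged CO2 calls without LPS became 5 with DESeq2, and the 3 averaged shNR4A3 calls became 0 at 0.01. Over all genes, DESeq2 changed the calls from 2176 to 4237 for CO2 and from 5840 to 5823 for shNR4A3. For averaged CO2 without LPS they went from 3082 to 3354. DESeq2 thus called 1.78%, 3.64% and 6.66% of its tests. Calls over all genes under the other settings named are not given here. The changes are therefore not shown to be particular to the chaperones. With library size alone the averaged LPS effects of HSPA4, HSPA5 and HSP90B1 turned to -0.0447, -0.0462 and -0.0490. The cause was not tested.

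With the replicate number as a block, calls were 3 of 60 for CO2, 48 of 60 for LPS, 9 of 40 for shNR4A2 and 9 of 40 for shNR4A3. All comparisons were counted, whether or not the numbers paired them, and interactions stayed at 0. Of all genes, the single blocked fits called 0.813% to 8.85% for CO2 and 27.7% to 52.2% for LPS. They called 11.9% to 34.8% for shNR4A2 and 13% to 24.9% for shNR4A3. The counts of members for the knockdown lines are near those shares. For averaged effects HSPA5 became called for CO2 without LPS and HSPA1B was no longer called for shNR4A2 (adjusted p = 0.0573).

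Leaving out 1 library gave 2 to 7 calls for CO2, with 2 without shNT 5% CO2 replicate 1 or shNT 10% CO2 replicate 2 and 7 without shNR4A2 5% CO2 + LPS replicate 3. It gave 26 to 33 for LPS, 0 to 1 for shNR4A2, 0 to 2 for shNR4A3, and 0 to 0 for each kind of interaction. How many of all genes each of these fits called is not given here. For averaged effects it gave 3 to 6 for CO2 without LPS (6 without shNR4A2 10% CO2 replicate 1, 5 without its replicate 3), 7 to 8 with LPS, 10 to 10 for LPS, 2 to 3 for shNR4A2 and 1 to 4 for shNR4A3, where 6 libraries each gave 1. TMM-scaled counts per kilobase in place of TPM lowered every member's level and kept their order of means. Both measures divide by the same gene lengths, so the order within a library could not change. The dependence of the order on those lengths was not tested.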
